A study of Mus musculus with 10 samples.

Results

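The 10 genes described here encode the enzymes around purine nucleoside phosphorylase (PNP), the target of the inhibitor ulodesine, on the routes that lead from guanosine and deoxyguanosine to nucleotides or to urate. They were taken by name from a given list (Pnp, Pnp2, Hprt, Gda, Xdh, Dck, Dguok, Samhd1, Impdh1 and Impdh2), and all 10 were found among the 55573 Ensembl gene IDs of the table. RNA was sequenced from wild-type (WT) bone marrow-derived macrophages (BMDMs) of female C57BL/6 mice, grown with M-CSF and treated for 4 hours. The 5 groups, of 2 libraries each, received vehicle, 5 µg of polyU (a uridine single-stranded RNA carried by the lipid DOTAP), PNPi+dG/rG (1 µM ulodesine with 5 µM deoxyguanosine and 5 µM guanosine), PNPi+dG/rG+polyU, or R848 at 1 ng/mL. PNPi+dG/rG+polyU is also called the combination. R848 is an imidazoquinoline ligand of TLR7, and guanosine nucleosides and single-stranded RNA act on the same receptor at separate sites. No group received ulodesine without the nucleosides, nor the nucleosides without ulodesine, so these cannot be told apart. The labels call the libraries of a group biological replicates and do not say whether they came from separate mice, so p-values measure the spread between these libraries.

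PNP splits guanosine and deoxyguanosine with phosphate into guanine and a sugar phosphate, and does the same with inosine. Guanine has 2 fates: hypoxanthine-guanine phosphoribosyltransferase (Hprt) salvages it to GMP, while guanine deaminase (Gda) turns it into xanthine, which xanthine dehydrogenase (Xdh) oxidizes to urate. Deoxyguanosine that escapes PNP can be phosphorylated by deoxycytidine kinase (Dck) in the cytosol or by deoxyguanosine kinase (Dguok) in mitochondria, and SAMHD1 breaks down the dNTPs formed. IMP dehydrogenases (Impdh1 and Impdh2) open the de novo route to GMP.

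Values are in CPM, which scales the reads on a gene as a share of all reads on genes in its library. Each library held between 14128123 and 38392592 reads on genes, as worked out from the step between low values. PNPi+dG/rG had the deepest libraries and PNPi+dG/rG+polyU the shallowest, and 3 reads, taken as the detection floor, correspond to between 0.0781 and 0.212 CPM. All 10 enzyme genes lay above it in every library, and all 10 were among the 11978 genes that entered the test by reaching 1 CPM in 2 or more libraries. Pnp2 did so only through polyU, the combination and R848, the groups where it was high. With vehicle and with PNPi+dG/rG it lay under 1 CPM in each library. A gene passed the test when limma gave a Benjamini-Hochberg adjusted p under 0.05 over those 11978 genes, and was called at 2-fold when it also changed at least 2-fold. Fold changes are differences of mean log2 CPM.

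Markers of the labelled cell type were present in all 10 libraries. Lyz2, the most abundant, had 10805 and 11067 CPM with vehicle, 8568 and 8575 in the combination, and 7756 and 7810 with R848. Csf1r had 2140 and 2206 CPM with vehicle, 1455 and 1416 in the combination, and 1654 and 1727 with R848. Adgre1, Cd68, Itgam, Mertk and Fcgr1 were also above 3 reads in every library, Mertk lowest at 5.36 and 5.66 CPM with R848. The T cell genes Cd3e, Cd3d and Cd8a, the neutrophil gene Ly6g and the dendritic cell genes Flt3 and Xcr1 were at or under 3 reads in every library. So was the B cell gene Cd79a. Cd4, also on the T cell list, had 6.85 and 8.82 CPM with vehicle and a mean of 0.843 CPM with R848, and the dendritic cell gene Zbtb46 reached 0.779 and 0.563 CPM (11 and 8 reads) in the combination. The neutrophil list summed to between 1.04 and 5.45 CPM outside R848 and to 21.0 and 23.4 CPM with R848, nearly all of it S100a8, which activated macrophages also express. The endothelial list was nearly all Kdr, at 156 and 146 CPM with vehicle and 18.5 and 21.1 CPM with R848. Its other members did not follow Kdr closely. Pecam1 had 0.337 and 0.0563 CPM with vehicle and 1.06 and 1.07 with R848, and Cdh5 had 1.68 and 2.14 CPM and 1.22 and 1.19 CPM. Of the 3 genes, 1 was higher and 1 lower by the test with R848, where 19.2% of all genes were higher and 62.9% lower.

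Both R848 libraries also stood apart from the other 8 in the fibroblast and proliferation lists. The 4 fibroblast genes (Col1a1, Col1a2, Pdgfra and Dcn) summed to between 0.281 and 1.02 CPM in the other libraries and to 96.1 and 102 CPM with R848. Col1a1 was the most abundant, at 51.6 and 58.3 CPM. The 6 proliferation genes (Mki67, Top2a, Mcm3, Mcm5, Pcna and Ccnb1) summed to 1824 and 1648 CPM with vehicle, 1518 and 1305 with polyU, 1622 and 1774 with PNPi+dG/rG, 1014 and 1058 in the combination, and 214 and 214 with R848. All 6 fell with R848, where 62.9% of all genes tested were lower, and 5 of 6 fell with PNPi+dG/rG+polyU, where 46.7% were. These values stand beside every R848 result that follows, and their part in those results was not tested. Whether the R848 libraries came from the same culture as the others is not given in the sources used here, so a difference from vehicle may include a difference between cultures. In bulk RNA, fewer cells of a type and less RNA per cell cannot be told apart.

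The scale of the table moved as well. Over all 11978 genes, the median log2 fold change was 0.02 with polyU and 0.02 with PNPi+dG/rG, but -0.22 in the combination and -0.50 in R848, each against vehicle. It was -0.24 for PNPi+dG/rG+polyU against polyU, 0.31 for PNPi+dG/rG+polyU against R848 and -0.27 for the interaction. Of the genes that passed the test with R848, 23.4% were higher, and 55.4% were when each library was centred on its own median. The same centring moved that share from 32.2% to 50.0% for PNPi+dG/rG+polyU against vehicle, from 25.0% to 54.3% against polyU and from 76.1% to 43.1% against R848. It moved it from 23.3% to 58.6% for the interaction and from 51.0% to 27.3% for PNPi+dG/rG. Where centring changed the side of the test for an enzyme gene in these comparisons, its centred value is given too.

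PNPi+dG/rG without polyU was compared with vehicle to see whether blocking PNP in the presence of its substrates changed the genes of the pathway. None of the 10 enzyme genes passed limma's test, and 2 of 10 (Xdh and Pnp2) had an unadjusted p under 0.05, as had 8.98% of all genes. Of all genes tested, 0.409% were higher and 0.392% lower, and 0.0668% were higher and 0.00835% lower at 2-fold. For Pnp itself the 95% interval of the log2 fold change was -0.20 to 0.07. The median over the 10 genes was 0.00.

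With polyU against vehicle, 5 of the 10 genes rose (Pnp2, Pnp, Samhd1, Dck and Xdh) and 0 fell, where 20.6% of all genes tested were higher and 18.7% lower. Only Pnp2 was called at 2-fold, where 3.21% of all genes were higher and 0.776% lower at that size. The median log2 fold change of the 10 was 0.28.

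With PNPi+dG/rG+polyU against vehicle, 4 genes rose (Pnp2, Pnp, Samhd1 and Dck) and 2 fell (Impdh1 and Xdh), against 22.2% higher and 46.7% lower among all genes. Pnp2 and Pnp were called at 2-fold, where 8.12% of all genes were higher and 14.3% lower. The median over the 10 was 0.12. After centring, 6 of the 10 were higher and 1 lower, against 33.2% and 33.2% of all genes.

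With R848 against vehicle, all 10 genes passed the test: Pnp2, Gda and Pnp rose and the other 7 fell. Of all genes, 19.2% were higher and 62.9% lower, so falls were common across the table. At 2-fold, 3 rose (Pnp2, Gda and Pnp) and 2 fell (Dck and Impdh2), against 8.89% higher and 30.3% lower among all genes. The median over the 10 was -0.75. After centring, 4 of the 10 were higher and 5 lower, against 43.0% and 34.6% of all genes.

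**Figure D1:**
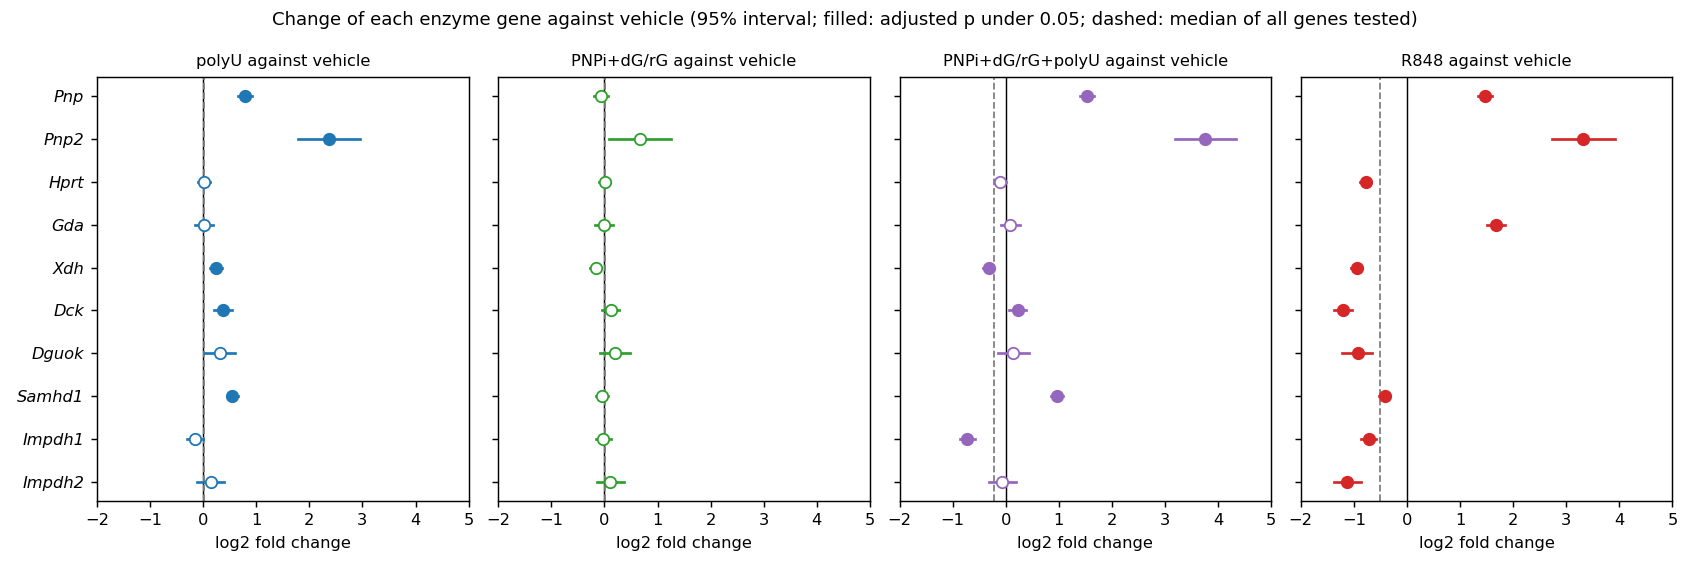
The log2 fold change of each enzyme gene against vehicle in 4 treatments, with its 95% interval from limma (2 libraries a group); filled points passed the test, open points did not, and the dashed line is the median of all 11978 genes tested. Pnp and Pnp2 are filled and right of 0 in 3 panels, Gda only with R848 (1.67), and all 10 points of the PNPi+dG/rG panel are open.

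Adding PNPi+dG/rG to polyU was compared with polyU alone. Pnp2, Pnp and Samhd1 rose and Impdh1, Xdh and Hprt fell, where 15.8% of all genes were higher and 47.5% lower. After centring, 5 of the 10 were higher and 2 lower, against 30.1% and 25.3% of all genes. Against R848, PNPi+dG/rG+polyU had higher Dck, Samhd1, Dguok, Impdh2, Hprt and Xdh and lower Gda, where 53.9% of all genes were higher and 16.9% lower. Centred libraries gave 6 higher and 3 lower in this comparison, against 28.4% and 37.5% of all genes. The interaction asks whether PNPi+dG/rG changed a gene more with polyU than without it. It passed the test for 4 of the 10 genes, higher for Pnp and Samhd1 and lower for Impdh1 and Xdh, against 11.8% higher and 38.9% lower among all genes. After centring it passed for 5, with Gda and Pnp2 gained and Xdh lost, against 24.1% higher and 17.0% lower among all genes. Comparisons against vehicle share the same 2 control libraries, so they are set side by side here and not counted as separate support.

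**Figure D2:**
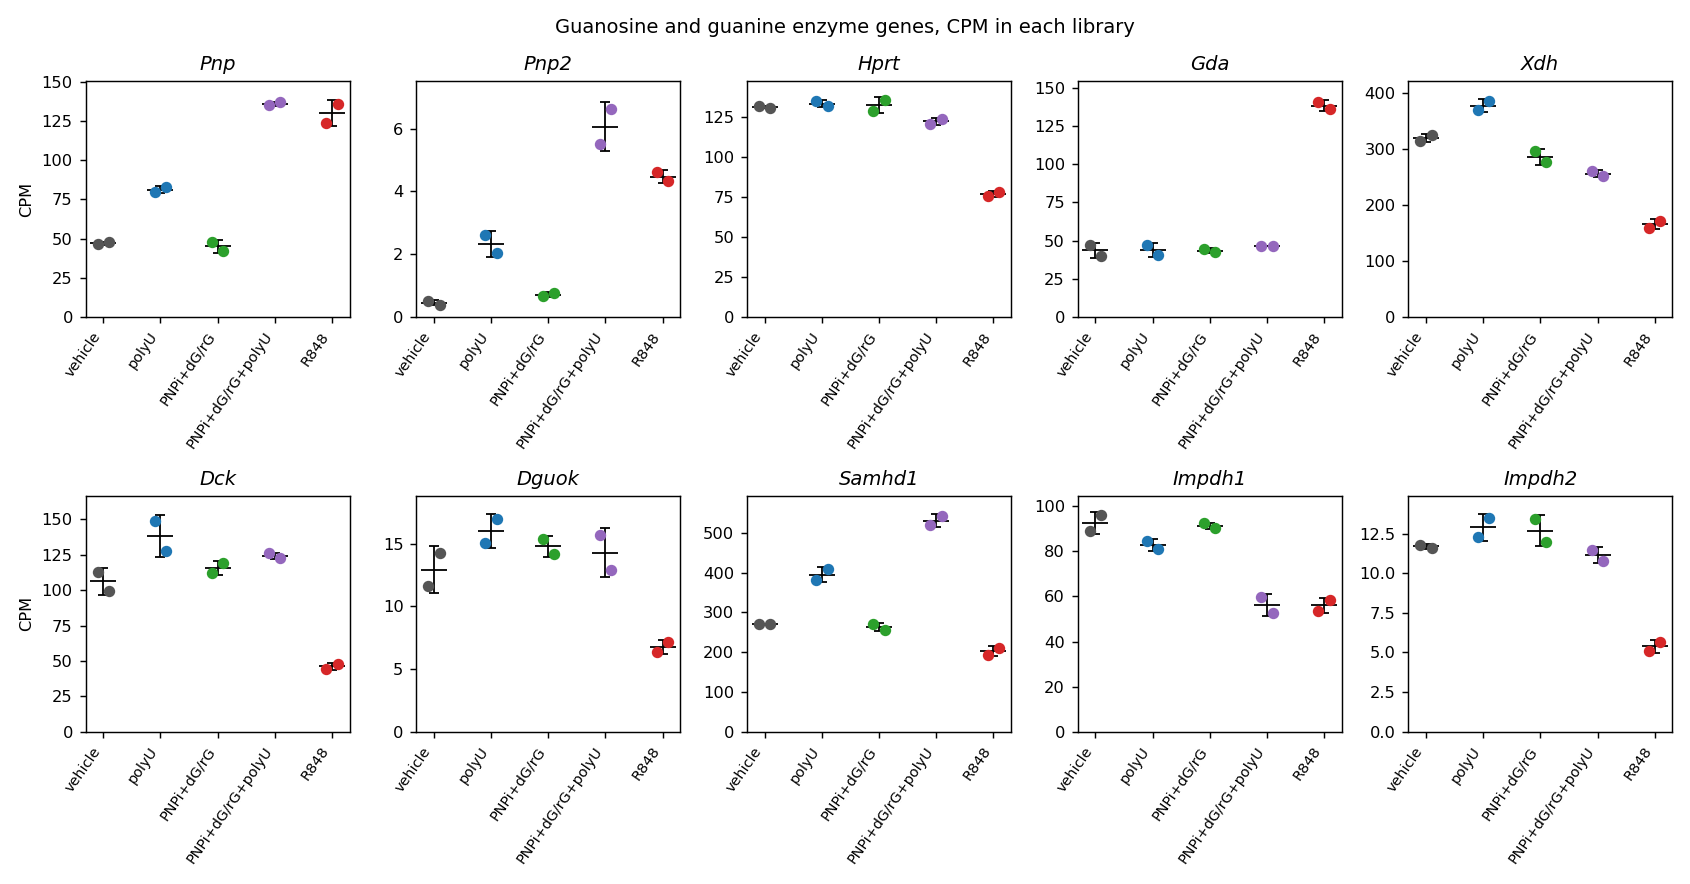
CPM of the 10 enzyme genes in each of the 10 libraries (points), with the group mean and SD of 2 libraries (black bars); every axis starts at 0. Pnp is high in the combination and in R848 (124 to 137 CPM), Samhd1 is highest with PNPi+dG/rG+polyU (520 and 543 CPM), and Gda is high with R848 (141 and 136 CPM).

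Pnp (ENSMUSG00000115338, chr14:50931082-50965237, plus strand, GRCm38) encodes the drug target. Its level was 46.3 and 47.8 CPM with vehicle, 79.5 and 82.6 with polyU, 47.8 and 42.2 with PNPi+dG/rG, 135 and 137 in the combination, and 124 and 136 with R848. The 2 highest groups overlapped, as did the 2 lowest, and polyU lay between them without touching either. Pnp rose 1.72-fold with polyU (log2 0.79, SE 0.06, limma adjusted p = 1.4e-07), 2.89-fold with PNPi+dG/rG+polyU (log2 1.53, SE 0.06, adjusted p = 6.1e-12) and 2.76-fold with R848 (log2 1.47, SE 0.06, adjusted p = 5.2e-12). PNPi+dG/rG added 0.74 on the log2 scale in the presence of polyU (SE 0.06, limma adjusted p = 7.8e-08) and -0.07 without it, and the interaction was 0.81 (SE 0.09, adjusted p = 3.1e-06). The combination did not differ from R848 by the test (log2 0.06, 95% interval -0.07 to 0.20), but on centred libraries it was lower (log2 -0.32, limma adjusted p = 3.9e-04), so the order of these 2 groups depends on the scaling. Centred values against vehicle were 1.74 in the combination and 2.06 in R848.

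Pnp2 (ENSMUSG00000068417, chr14:50955992-50964749, plus strand) lies within the span of Pnp and encodes a second, closely related phosphorylase. It stood at 0.505 and 0.393 CPM with vehicle, 2.61 and 2.03 with polyU, 0.651 and 0.775 with PNPi+dG/rG, 5.52 and 6.61 in the combination, and 4.62 and 4.32 with R848. The vehicle values rest on 9 and 7 reads, and no 2 groups next to each other in the order vehicle, PNPi+dG/rG, polyU, R848, PNPi+dG/rG+polyU overlapped. Entry of Pnp2 to the test came from the groups where it was high, so its calls are not independent of that rise. They were kept when no filter was used. Pnp2 rose 5.17-fold with polyU (log2 2.37, SE 0.27, limma adjusted p = 5.4e-06), 13.6-fold with PNPi+dG/rG+polyU (log2 3.76, SE 0.27, adjusted p = 5.1e-09) and 10.0-fold with R848 (log2 3.32, SE 0.27, adjusted p = 1.3e-08). With PNPi+dG/rG the change was 0.67 (95% interval 0.09 to 1.25, limma adjusted p = 0.43). Its interaction of 0.72 did not pass (SE 0.39, limma adjusted p = 0.13). It passed on centred libraries at 1.00 (adjusted p = 0.048) and with a pseudocount of 1 at 0.85 (adjusted p = 0.0029).

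Reads of Pnp and Pnp2 can be hard to tell apart, so the split between them is uncertain. Their annotated exons share 0 bases, but 438 of the 1538 distinct 50-base stretches of the Pnp2 transcripts (28.5%) also occur in Pnp transcripts, and the reads were 50 bases long. The rule for reads that match several places is not given in the sources used here. The longest identical stretch of the coding sequences, in GENCODE M21, is 292 bases. It covers positions 284 to 575 of the 867 coding bases of Pnp and 329 to 620 of the 915 of Pnp2, counted from the start codon, and it is shown because a read from within it belongs to either gene:
Pnp and Pnp2 shared coding stretch: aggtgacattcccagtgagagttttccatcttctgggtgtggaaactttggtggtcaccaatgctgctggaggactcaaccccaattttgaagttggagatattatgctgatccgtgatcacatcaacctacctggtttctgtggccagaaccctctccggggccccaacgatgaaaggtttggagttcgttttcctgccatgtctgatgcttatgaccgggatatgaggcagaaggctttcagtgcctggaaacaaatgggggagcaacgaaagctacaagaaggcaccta
The level of Pnp2 was 1.09% and 0.824% of that of Pnp in CPM with vehicle, 3.29% and 2.46% with polyU, 1.36% and 1.84% with PNPi+dG/rG, 4.09% and 4.83% in the combination, and 3.71% and 3.18% with R848. The ratio was lowest with vehicle and highest in the combination. Gm49342, a gene model on the same strand that covers 18.0% of the exon bases of Pnp, is listed at 0 in all 10 libraries.

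Hprt (ENSMUSG00000025630, chrX:52988137-53021659, plus strand), which salvages guanine and hypoxanthine, had 132 and 131 CPM with vehicle, 135 and 132 with polyU, 129 and 136 with PNPi+dG/rG, and 121 and 124 with PNPi+dG/rG+polyU. The R848 libraries had 75.8 and 78.2 CPM, below the other 8. Hprt fell 1.71-fold with R848 (log2 -0.78, SE 0.05, limma adjusted p = 3.6e-10), and the change on centred libraries was -0.18 (adjusted p = 0.0022). A change of -0.12 in PNPi+dG/rG+polyU against polyU passed narrowly (SE 0.05, limma adjusted p = 0.035). It did not pass when any 1 of the 4 libraries was left out (-0.14 to -0.11), and it turned to 0.13 on centred libraries (adjusted p = 0.023).

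Gda (ENSMUSG00000058624, chr19:21391307-21473445, minus strand), which commits guanine to breakdown, was alone among the 10 in rising against vehicle with R848 only. Its level was 46.9 and 40.2 CPM with vehicle, 47.2 and 40.5 with polyU, 44.5 and 42.3 with PNPi+dG/rG, 46.4 and 46.3 in the combination, and 141 and 136 with R848. The first 4 groups overlapped and R848 lay far above them. Hprt, Dck, Dguok and Impdh2 also stood apart with R848 but were low there, with Pearson r to Gda from -0.99 to -0.95. Gda rose 3.19-fold with R848 (log2 1.67, SE 0.08, limma adjusted p = 1.9e-11), and 4.82-fold on centred libraries. PNPi+dG/rG+polyU was 2.99-fold below R848 (log2 -1.58, SE 0.08, limma adjusted p = 1.4e-10). Against vehicle the combination changed Gda by 0.09 (95% interval -0.08 to 0.27), which passed the test only after centring (log2 0.31, limma adjusted p = 0.0029). Centring also brought Gda past the test in the combination against polyU (log2 0.34, limma adjusted p = 0.0017) and in the interaction (log2 0.37, adjusted p = 0.014).

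Xdh (ENSMUSG00000024066, chr17:73883895-73950196, minus strand), the last step to urate, had 315 and 325 CPM with vehicle, 369 and 386 with polyU, 296 and 276 with PNPi+dG/rG, 260 and 252 in the combination, and 159 and 172 with R848. The 5 groups did not overlap. Xdh rose 1.18-fold with polyU (log2 0.24, SE 0.05, limma adjusted p = 0.0014). It fell 1.25-fold with PNPi+dG/rG+polyU (log2 -0.32, SE 0.05, limma adjusted p = 3.5e-05) and 1.93-fold with R848 (log2 -0.95, SE 0.05, adjusted p = 5.5e-11). Against polyU the combination was 1.48-fold lower (log2 -0.56, SE 0.05, limma adjusted p = 1.1e-07), and the interaction was -0.40 (SE 0.07, adjusted p = 2.8e-04). Centring kept the polyU rise (0.20) and the R848 fall (-0.36), but the fall with PNPi+dG/rG+polyU became -0.11 (limma adjusted p = 0.060) and the interaction -0.11 (adjusted p = 0.23).

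Dck (ENSMUSG00000029366, chr5:88764996-88783281, plus strand), the cytosolic kinase of deoxyguanosine and deoxycytidine, had 113 and 99.6 CPM with vehicle, 149 and 128 with polyU, 112 and 119 with PNPi+dG/rG, 126 and 123 in the combination, and 44.5 and 47.9 with R848. Only the R848 libraries were low. Dck fell 2.30-fold with R848 (log2 -1.20, SE 0.08, limma adjusted p = 1.9e-09), and 1.52-fold on centred libraries (adjusted p = 1.3e-06). It rose 1.30-fold with polyU (log2 0.38, SE 0.08, limma adjusted p = 0.0012). A rise of 1.17-fold with PNPi+dG/rG+polyU (log2 0.23, SE 0.08, limma adjusted p = 0.015) was lost with eBayes without trend or robust (adjusted p = 0.073), without vehicle replicate 2 (log2 0.14, adjusted p = 0.17) and without PNPi+dG/rG+polyU replicate 1 (log2 0.21, adjusted p = 0.084). On centred libraries it was larger (log2 0.44, limma adjusted p = 5.9e-05).

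Dguok (ENSMUSG00000014554, chr6:83480217-83506969, minus strand), the mitochondrial kinase, was much lower, at 11.6 and 14.3 CPM with vehicle, 15.1 and 17.0 with polyU, 15.4 and 14.2 with PNPi+dG/rG, 15.7 and 12.9 in the combination, and 6.37 and 7.13 with R848. The 4 groups other than R848 formed 1 overlapping range. Dguok fell 1.91-fold with R848 (log2 -0.93, SE 0.13, limma adjusted p = 8.9e-06), and the change after centring was -0.34 (adjusted p = 0.030). With polyU the difference of 0.32 did not pass (SE 0.13, limma adjusted p = 0.073). It passed without vehicle replicate 2 (log2 0.47, adjusted p = 0.030). In the combination the difference of 0.14 passed only on centred libraries (log2 0.35, limma adjusted p = 0.028).

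Samhd1 (ENSMUSG00000027639, chr2:157097533-157135265, minus strand), the dNTP hydrolase, had 271 and 271 CPM with vehicle, 382 and 409 with polyU, 270 and 257 with PNPi+dG/rG, 520 and 543 in the combination, and 193 and 211 with R848. The order from low to high was R848, PNPi+dG/rG, vehicle, polyU and PNPi+dG/rG+polyU, and no neighbours in it overlapped, although PNPi+dG/rG and vehicle differed by only -0.04 (95% interval -0.15 to 0.07). Samhd1 rose 1.46-fold with polyU (log2 0.55, SE 0.05, limma adjusted p = 5.1e-07) and 1.96-fold with PNPi+dG/rG+polyU (log2 0.97, SE 0.05, adjusted p = 8.0e-11). The combination was 1.34-fold above polyU (log2 0.43, SE 0.05, limma adjusted p = 2.7e-06), with an interaction of 0.47 (SE 0.07, adjusted p = 6.8e-05), and 2.63-fold above R848 (log2 1.39, SE 0.05, adjusted p = 2.6e-12). With R848 Samhd1 was 1.34-fold below vehicle (log2 -0.42, SE 0.05, limma adjusted p = 1.3e-06), a direction that flipped on centred libraries (log2 0.17, adjusted p = 0.0056). The difference between the combination and R848 stood at 1.01 after centring.

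Samhd1 is known as an interferon-stimulated gene in many cells, so other genes of that kind are given beside it. Mx1, Isg15, Ifit1, Rsad2, Irf7, Oas3 and Cmpk2 rose with polyU alone, where 20.6% of all genes were higher, and in the combination, where 22.2% were. With R848, Mx1, Isg15, Ifit1, Rsad2 and Cmpk2 rose, Oas3 fell (log2 -0.66) and Irf7 did not pass. On centred libraries Oas3 did not pass with R848 (log2 -0.07, limma adjusted p = 0.39) and Irf7 rose (log2 0.39, adjusted p = 0.0048). Mx1 had 11.4 and 9.38 CPM with vehicle, 136 and 159 with polyU, 12.5 and 12.0 with PNPi+dG/rG, 482 and 440 with the combination, and 35.9 and 42.0 with R848. Each of these genes was higher in the combination than with R848, as were 53.9% of all genes. The NF-κB target genes Tnf, Nfkbia, Il12b and Tnfaip3 all rose with polyU, with the combination and with R848 (20.6%, 22.2% and 19.2% of all genes were higher). Tnf and Nfkbia also rose with PNPi+dG/rG, where 0.409% were higher, a share that moved with the settings. Both passed there on centred libraries too (log2 0.56 and 0.47, limma adjusted p = 0.012 and 0.0061), and no other alternative is given for them. Tnf had 53.2 and 56.4 CPM with vehicle, 245 and 259 with polyU, 75.7 and 90.0 with PNPi+dG/rG, 3415 and 3154 with the combination, and 2167 and 2064 with R848. Tnfaip3 was higher with R848 (1411 and 1454 CPM) than with the combination (782 and 803 CPM).

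Impdh1 (ENSMUSG00000003500, chr6:29200434-29216364, minus strand) had 89.1 and 96.0 CPM with vehicle, 84.8 and 80.9 with polyU, 92.4 and 90.4 with PNPi+dG/rG, 59.8 and 52.8 in the combination, and 53.7 and 58.5 with R848. The combination and R848 overlapped and lay below the other 3 groups. Impdh1 fell 1.65-fold in each (log2 -0.72, SE 0.07, limma adjusted p = 1.4e-07 in the combination and 7.5e-08 in R848). Relative to polyU the combination was 1.47-fold lower (log2 -0.56, SE 0.07, limma adjusted p = 3.6e-06), and the interaction was -0.54 (SE 0.10, adjusted p = 2.7e-04). On centred libraries the change with the combination was -0.51 (limma adjusted p = 4.9e-06) and the interaction -0.25 (adjusted p = 0.037), while that with R848 was -0.13 and did not pass (adjusted p = 0.084). Their difference was 0.00 on the deposited scale and -0.38 when centred (limma adjusted p = 9.8e-05). A lower value with polyU (log2 -0.16, SE 0.07, limma adjusted p = 0.077) passed when centred (log2 -0.20, adjusted p = 0.021).

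Impdh2 (ENSMUSG00000062867, chr9:108560286-108565584, plus strand), the second IMP dehydrogenase, had 11.8 and 11.6 CPM with vehicle, 12.3 and 13.5 with polyU, 13.4 and 12.0 with PNPi+dG/rG, 11.5 and 10.8 in the combination, and 5.10 and 5.66 with R848. Again only the R848 libraries were low. It fell 2.18-fold with R848 (log2 -1.12, SE 0.12, limma adjusted p = 2.8e-07), or 1.44-fold on centred libraries (adjusted p = 7.7e-04). In the combination Impdh1 fell while Impdh2 changed by -0.07 (95% interval -0.32 to 0.19), and the difference between these 2 changes was not tested. Impdh1 and Impdh2 transcripts share 0 of their 50-base stretches.

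Levels of different genes were compared per length, as CPM per kb of merged exons. With vehicle, Hprt was highest at 102 CPM per kb, followed by Xdh at 34.9, Samhd1 at 29.6, Dck at 28.2 and Impdh1 at 28.1. Pnp stood at 11.8, Gda at 6.98, Impdh2 at 3.80, Dguok at 2.81 and Pnp2 at 0.283 CPM per kb. With PNPi+dG/rG+polyU, Samhd1 reached 58.1 and Pnp 34.1 CPM per kb, above Dck at 33.0, Xdh at 27.9 and Impdh1 at 17.1. With R848, Hprt was still highest at 59.8 CPM per kb, then came Pnp at 32.7, Gda at 22.2, Samhd1 at 22.1, Xdh at 18.1, Impdh1 at 17.0 and Dck at 12.2. So the per-length level of Pnp lay below that of Dck with vehicle and above it with R848, and that of Gda passed those of Dck and Xdh with R848. Exons of unused isoforms lengthen the merged model and lower this measure, and whether they did so equally in all genes was not tested.

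Ratios within a library do not depend on how libraries are scaled. They were chosen after the values were seen and are a description with no test. They compare RNA and not enzyme activity, and PNPi+dG/rG and the combination contained the PNP inhibitor. At the branch where guanine is either broken down or salvaged, the Gda level over the Hprt level (CPM per kb) was 0.0734 and 0.0632 with vehicle, 0.0725 and 0.0635 with polyU, 0.0712 and 0.0645 with PNPi+dG/rG, 0.0794 and 0.0772 in the combination, and 0.384 and 0.360 with R848. R848 stood alone at this branch. For enzymes that compete for deoxyguanosine, the Pnp level over the Dck level was 0.388 and 0.456 with vehicle, 0.507 and 0.612 with polyU, 0.406 and 0.338 with PNPi+dG/rG, 1.01 and 1.06 in the combination, and 2.66 and 2.69 with R848. Samhd1 over Dck, the dNTP hydrolase over the kinase, was 0.987 and 1.12 with vehicle, 1.06 and 1.32 with polyU, 0.996 and 0.894 with PNPi+dG/rG, 1.70 and 1.82 with the combination, and 1.80 and 1.82 with R848. The combination and R848 were thus alike in this ratio, with Samhd1 high in the former and Dck low in the latter. Xdh over Hprt moved least, from 0.285 to 0.411 over the 10 libraries.

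**Figure D3:**
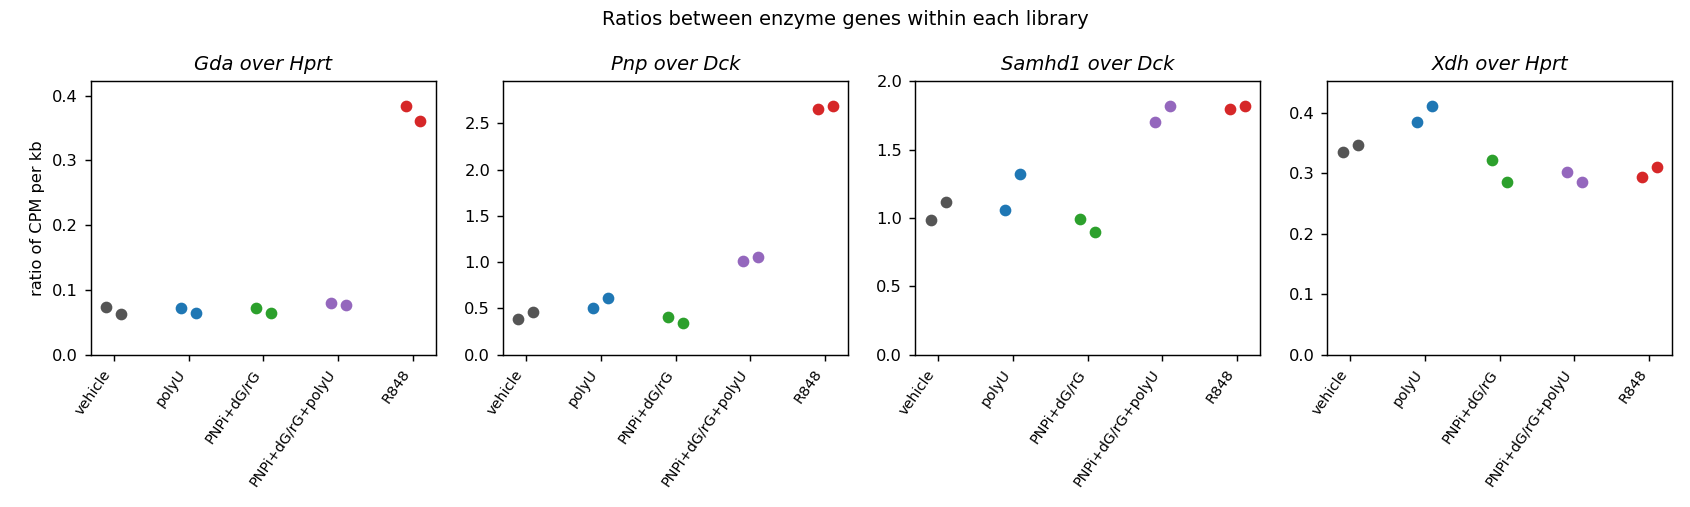
Ratios of CPM per kb between pairs of enzyme genes in each of the 10 libraries (points, 2 per group); every axis starts at 0. Gda over Hprt is high with R848 (0.384 and 0.360), Pnp over Dck rises from vehicle through the combination to R848 (2.66 and 2.69), and Samhd1 over Dck is high in both the combination and R848.

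The neighbours of these enzymes in nucleotide metabolism were read from a list of 37 genes, of which 29 entered the test. The list is not limited to purines and also holds pyrimidine enzymes, such as Tk1 and Dctd. Uox (urate oxidase), Slc28a3 and Nt5c1b were listed at 0 in all 10 libraries, and Slc29a4, Nt5c1a, Nt5e, Nme2 and Cda were also below the filter. With PNPi+dG/rG, 0 of 29 passed limma's test, where 0.409% of all genes were higher and 0.392% lower, and 2 had an unadjusted p under 0.05, as had 8.98% of all genes. With polyU, 6 rose and 5 fell, against 20.6% higher and 18.7% lower among all genes, and the median was 0.02. Without vehicle replicate 1, fewer of the 29 passed, and fewer of all genes tested passed as well. With PNPi+dG/rG+polyU, 5 rose and 19 fell (median -0.44 against -0.22 for all genes), where 22.2% of all genes were higher and 46.7% lower. With R848, 3 rose and 23 fell (median -1.20 against -0.50), where 19.2% were higher and 62.9% lower. After centring these counts were 7 and 14 with the combination, where 33.2% of all genes were higher and 33.2% lower, and 8 and 20 with R848, where 43.0% were higher and 34.6% lower.

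Among the transporters, Slc28a2, which carries purine nucleosides into cells with sodium, had 18.1 and 19.3 CPM with vehicle, 26.3 and 29.9 with polyU, 17.4 and 16.0 with PNPi+dG/rG, 123 and 119 with PNPi+dG/rG+polyU, and a mean of 99.1 with R848. It rose 6.49-fold with the combination (log2 2.70, SE 0.08, limma adjusted p = 4.6e-14) and 5.31-fold with R848 (log2 2.41, SE 0.08, adjusted p = 7.9e-14). Its interaction, a 4.83-fold difference, was the largest rise among the neighbours (95% interval on the log2 scale 2.04 to 2.50, limma adjusted p = 1.5e-10). Slc29a3 and Slc29a2, equilibrative transporters, went the other way, and Slc29a1 depended on the scaling: with R848 it was -0.33 (limma adjusted p = 1.3e-04), and 0.27 on centred libraries (adjusted p = 5.7e-04). In the combination Slc29a1 was -0.28 (limma adjusted p = 7.5e-04), and -0.07 on centred libraries (adjusted p = 0.30). Slc29a3, which carries nucleosides out of lysosomes, had 86.1 and 85.6 CPM with vehicle, 71.9 and 76.0 with polyU, 77.7 and 77.6 with PNPi+dG/rG, 34.5 and 33.9 with the combination, and 21.1 and 19.6 with R848. It fell by 1.33 on the log2 scale with the combination (SE 0.06, limma adjusted p = 1.8e-11). Slc29a2, a transporter of the cell surface, fell from 4.88 and 6.35 CPM with vehicle to 1.49 and 1.34 with the combination (log2 -1.98, SE 0.20, limma adjusted p = 3.6e-07).

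Of the 5′-nucleotidases, which return nucleotides to nucleosides, Nt5c3 was the only neighbour gene called at 2-fold with polyU. That is 1 of 29, where 3.21% of all genes were higher and 0.776% lower at that size. It had 22.7 and 19.4 CPM with vehicle, 42.0 and 43.6 with polyU, 21.1 and 22.1 with PNPi+dG/rG, 83.7 and 82.2 with the combination, and 29.1 and 29.1 with R848. Its rise was 2.04-fold with polyU (limma adjusted p = 6.4e-08) and 3.94-fold with the combination (adjusted p = 2.6e-12). On centred libraries the rise with polyU was 1.97-fold, just under the 2-fold limit. Like Samhd1, it was highest in the combination. Its R848 values lay below those with polyU, but this order turned on centred libraries, where the change against vehicle was 1.06 with R848 and 0.98 with polyU.

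Gphn and Mocos act on the molybdenum cofactor that xanthine dehydrogenase needs, Gphn in its synthesis and Mocos in its sulfuration. Gphn had 28.7 and 31.3 CPM with vehicle, 61.4 and 65.7 in the combination, and a mean of 74.8 with R848, a rise of 2.12-fold (limma adjusted p = 1.9e-09) and 2.49-fold (adjusted p = 8.6e-11). Mocos had 142 and 158 CPM with vehicle, 112 and 129 with polyU, 144 and 138 with PNPi+dG/rG, 46.4 and 46.3 with the combination, and 18.2 and 17.4 with R848. It fell by 1.69 on the log2 scale with the combination (SE 0.07, limma adjusted p = 5.1e-12), further than Xdh itself at -0.32.

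Of 8 tested genes listed for GMP, GTP and dGTP, 6 fell with R848 and 2 did not pass, where 62.9% of all genes were lower. Rrm2, a subunit of ribonucleotide reductase, had 124 and 114 CPM with vehicle, 52.6 and 49.7 in the combination, and 0.850 and 0.919 with R848 (log2 -7.07, SE 0.10, limma adjusted p = 2.4e-17). Rrm1, the other subunit, had 252 and 221 CPM with vehicle and 14.3 and 14.6 with R848 (log2 -4.03, SE 0.08, limma adjusted p = 3.9e-14). The thymidine kinase Tk1 fell by 5.46 and the dCMP deaminase Dctd by 4.89 on the log2 scale with R848, where Dctd had 7 and 6 reads. Gmpr, which returns GMP to IMP, fell by 3.78 with R848 (SE 0.21, limma adjusted p = 9.6e-11) and by 1.21 in the combination against polyU (SE 0.21, adjusted p = 1.2e-04). Rrm1, Rrm2 and Tk1 are made mainly by dividing cells, and the proliferation list moved with them, at 214 and 214 CPM in sum with R848 against 1824 and 1648 CPM with vehicle. Its part in these falls was not tested. Rrm2b, the subunit used outside S phase, had 14.5 and 14.7 CPM with vehicle and 15.1 and 15.0 with R848. Its change of 0.04 did not pass, but on centred libraries Rrm2b was 1.56-fold higher (log2 0.64, limma adjusted p = 4.9e-05), and Gmpr2 went from -0.06 to 0.53 (adjusted p = 1.2e-06).

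Promoters, from 250 bases before to 50 after the gene start, were matched in the RefSeq table of GRCm38.p6 for 8 of the 10 enzyme genes, with 9 promoters in all. Pnp2 and Xdh had no entry. The core of the interferon-stimulated response element (GAAA, any 2 bases, GAAA), searched on both strands, was in 0 of the 9, and in 3.44% of all 32851 promoters of that length. The NF-κB site was in 1 of the 9, the second promoter of Impdh1, where the same 10 bases matched on both strands, and in 8.46% of all. No match says only that these letters are not in this window. The promoters of Pnp and Gda are printed because these genes rose most among those with an entry, Pnp with 3 of the treatments and Gda with R848. No capitals appear in them since neither motif was found.
Pnp, chr14:50944053-50944352, plus strand: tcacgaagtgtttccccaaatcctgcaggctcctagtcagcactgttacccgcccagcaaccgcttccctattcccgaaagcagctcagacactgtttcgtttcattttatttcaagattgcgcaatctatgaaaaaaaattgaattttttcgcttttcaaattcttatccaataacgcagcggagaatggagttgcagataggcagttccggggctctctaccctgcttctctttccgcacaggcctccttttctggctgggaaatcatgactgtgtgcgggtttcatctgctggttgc
Gda, chr19:21472612-21472911, minus strand: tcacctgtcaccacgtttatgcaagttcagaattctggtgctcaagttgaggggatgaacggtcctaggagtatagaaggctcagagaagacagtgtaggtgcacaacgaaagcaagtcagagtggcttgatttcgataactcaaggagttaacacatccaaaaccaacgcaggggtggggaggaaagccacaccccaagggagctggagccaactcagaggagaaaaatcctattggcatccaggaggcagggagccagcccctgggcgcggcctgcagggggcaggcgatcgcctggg

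Finally, the genes most like each 2-fold changed enzyme gene were sought by Pearson r of log2 CPM over the 10 libraries, among the 8459 tested genes that averaged 10 CPM or more. For Pnp they were Ms4a4c (r = 0.9960), Psme2 (0.9949) and Ccdc86 (0.9942), and for Pnp2 Gbp7 (0.9941), Gm21188 (0.9934) and Gbp3 (0.9916). For Gda they were Gab1 (0.9944), Hif1a (0.9927) and Gcnt2 (0.9892). Dck was most like Ube2e3 (0.9951), Hat1 (0.9940) and Arl6ip1 (0.9936), and Impdh2 most like Tnfrsf13b (0.9978), Mrpl28 (0.9941) and Mprip (0.9940). The 10 points of each r fall into 5 groups and share libraries, so r mainly describes the group means.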

How the data were processed

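The authors isolated RNA with a NucleoSpin kit, made stranded mRNA libraries (KAPA), sequenced 50-base single reads on a HiSeq, mapped them to GRCm38 and counted reads with Ensembl release 97 in Partek Flow. The submitters' processing notes name bcl2fastq 2.19.1.403 and STAR 2.27a. The deposited values are CPM, made by the authors, with an offset of 0.0001 on each. In CPM, reads gained by very abundant genes are lost to all others in that library.

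From these values, log2 of the deposited CPM of all 10 libraries was fitted with limma 3.58.1 in R 4.3.3 (group means, eBayes with trend and robust, statmod 1.5.0), for the 11978 genes that reached 1 CPM in 2 or more libraries, and p was adjusted by Benjamini-Hochberg within each comparison. One pooled estimate of the spread was used because each group has 2 libraries. Read-count tests were not run on these normalized values. The code was tested on simulated reads. Depth came from the step between low values after removing the offset: 100.0% of values up to 20 reads were within 0.1 read of a whole multiple. Intervals and the floor of 3 reads cover these libraries only. Replicate libraries differed beyond sampling noise in every group (15.8% to 26.3% of genes with at least 50 reads in a pair at the 5% level of a chi-square test). This test covers read-counting noise only, so it cannot tell separate cultures from repeat libraries of 1 culture. The 2 libraries of a group were kept as replicates because the labels call them so. Symbols, positions and exon lengths came from GENCODE M21 (GRCm38, Ensembl release 96), 1 release from the authors' annotation, and 55394 of 55573 IDs had a symbol. Python 3.11.15 with numpy 2.4.6, pandas 2.3.3, scipy 1.17.1 and matplotlib 3.10.9 did the rest.

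The named genes are all 10 enzyme genes, up to 4 neighbour genes in each direction with the largest change among those called at 2-fold in a comparison, the 3 genes most like each enzyme gene called at 2-fold against vehicle, and genes of the marker and response lists, a few of which are not reported here. Mx1, Tnf, Rrm2b and other genes shown as examples within a list were picked from it after their values were seen. The members and lists were chosen with earlier results of these data known. Alternatives were pseudocounts of 0.1 and 1, no filter, libraries centred on the median of tested genes, eBayes without trend or robust, a fit on the compared groups, a replicate block and leaving out each library. Protein sequences were not used here.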

Additional observations from a re-analysis of the deposited data

Results flagged for a closer look

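The effect of PNPi+dG/rG differed with and without polyU, by limma's interaction term over all 11978 genes, for 4 of 10 enzyme genes and 22 of 29 neighbour genes (3 higher and 19 lower), where 11.8% of all genes were higher and 38.9% lower. On centred libraries the neighbour counts were 3 higher and 12 lower, where 24.1% of all genes were higher and 17.0% lower. On the log2 scale the interaction was 0.810 for Pnp, 0.468 for Samhd1, -0.398 for Xdh and -0.542 for Impdh1 (limma adjusted p from 3.1e-06 to 2.8e-04). For Xdh it became -0.11 on centred libraries and did not pass there, while Gda (0.37) and Pnp2 (1.00) did.

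Of the neighbour genes named in the text, the transporters and nucleotidases had 2.273 (Slc28a2), 0.914 (Nt5c3), -0.46 (Slc29a1), -0.967 (Slc29a3) and -2.072 (Slc29a2). On centred libraries Slc29a1 had -0.17 and did not pass (limma adjusted p = 0.10). For the cofactor genes it was 0.970 for Gphn and -1.289 for Mocos. The GMP, dNTP and thymidine genes had -1.219 (Gmpr), -0.409 (Rrm1), -0.818 (Rrm2), -1.139 (Tk1) and -1.734 (Dctd). Of the 6 proliferation genes, 3 were lower and 0 higher in the interaction, where 38.9% of all genes were lower. Their part in these values was not tested. The median of all genes in this term was -0.27, and Rrm1 on centred libraries had -0.12 (limma adjusted p = 0.41).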

How the results depend on the processing

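Each alternative was run for the 10 enzyme genes, in all 7 comparisons or, where a library was left out, in those that use its group. Of 810 values for single genes, 776 kept their side of the test, 13 lost the call, 17 gained one and 4 reversed. A reversal was counted only where the gene passed in the main fit or in the alternative. Changes of sign where neither passed are among the 776. Hprt in PNPi+dG/rG+polyU against vehicle is an example, at -0.11 and at 0.10 on centred libraries. The 4 reversals all came from centring libraries on their median: Samhd1 with R848 (0.17), Hprt in PNPi+dG/rG+polyU against polyU (0.13), and Pnp (-0.32) and Impdh1 (-0.38) in PNPi+dG/rG+polyU against R848. Centring gives all libraries the same median, which need not remove the median shift of a comparison exactly. The median log2 fold change went from -0.50 to 0.09 for R848 against vehicle. For PNPi+dG/rG+polyU against R848 it went from 0.31 to -0.07. The counts of enzyme genes past the test stayed within 1.5 times of those in the report under every alternative run. For the neighbour genes 1 count went outside that range, with polyU when vehicle replicate 1 was left out. Fewer of all genes tested passed in that fit too. The cause was not tested. A group left with 1 library is assumed to vary like the others.

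Over all genes, the 96 past the test with PNPi+dG/rG became 13 with eBayes without trend or robust, 63 without vehicle replicate 1, 48 without PNPi+dG/rG replicate 1 and 10 without PNPi+dG/rG replicate 2. None of the 10 enzyme genes passed in that comparison under any of these.

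With a replicate block, 5, 0, 6, 10, 6, 7 and 4 enzyme genes passed in the 7 comparisons, as without it, and for the neighbours 11, 0, 24, 26, 25, 25 and 21 passed, against 22 without the block in the interaction. The correlation of deviations of same-numbered libraries ran from -0.286 to 0.109 over the pairs of groups (median -0.023, 8459 genes), so the numbers were not used as pairs.

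Among the enzyme genes Pnp2 had the fewest reads, with 9 and 7 in the vehicle libraries. Dctd, a neighbour gene, had 7 and 6 reads with R848.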
